A study of Rattus norvegicus with 18 samples.

Results

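A set of 10 genes of fat cell formation was followed in cultured rat bone marrow mesenchymal stem cells: the transcription factors Cebpb, Cebpd, Cebpa, Pparg and Zfp423, and the adipocyte genes Fabp4, Lpl, Adipoq, Plin1 and Cfd. They were chosen by name, and each is represented by the probe sets that the platform annotation gives to that single symbol. The 10 genes had 20 of the 31099 probe sets, and 18 of these were among the 21729 probe sets bright enough to be tested. The cells came from Sprague-Dawley rats, which were 6 weeks of age when feeding began. The high-fat diet (HFD) kept 60% basal diet and added 20% lard, 10% sucrose and 10% egg yolk powder, and the normal diet (ND) was 100% basal diet. Total RNA was measured on Affymetrix arrays, 3 for HFD and 3 for ND after each of 1, 2 and 4 months, 18 in all. All cultures were started by plating whole marrow and were kept in growth medium, and the labels name no adipogenic inducer. The sample labels give passage 3 and the series text passage 1.

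Fat cells form from stromal precursors in ordered steps. Cebpb and Cebpd, members of the C/EBP family, are induced early and help to switch on Cebpa and Pparg, which maintain each other and activate the genes of the mature adipocyte. Zfp423 marks and promotes commitment of precursors to the fat lineage. Marrow stromal cells can become adipocytes or bone-forming cells, and Pparg favours the first of these fates. Cebpa, Cebpb and Cebpd are also active in macrophages and other myeloid cells, and Lpl and Pparg are expressed by some macrophages.

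The labelled cell type was checked against marker genes. Thy1, a surface marker of stromal cells, read 11.71 to 12.13 log2 units over the 18 arrays, and Col1a1, the main collagen of stroma, read 12.04 to 12.70. Of 14 stromal markers 13 were tested; Nt5e and Vcam1 varied widely (5.85 to 8.66 and 2.56 to 6.77), and the leptin receptor Lepr was left out by the filter on low intensity. Of 9 endothelial markers 6 were left out, Pecam1, Kdr and Vwf among them, and Egfl7 (6.36 to 6.90), Esam (4.93 to 6.97) and Tie1 (2.56 to 4.91) were tested. Macrophage markers varied widely within groups. The mean of 20 macrophage genes was 6.97, 8.27 and 6.83 log2 units in HFD and 8.77, 5.57 and 4.26 in ND at 1 month. At 2 months it was 5.21, 6.41 and 7.61 in HFD and 9.0, 8.91 and 5.82 in ND. At 4 months it was 9.02, 8.59 and 8.67 in HFD and 7.68, 9.34 and 7.40 in ND. Replicate 1 of ND at 1 month was thus far above its group mates, and replicate 3 of ND at 2 months far below its own. In such bulk RNA, fewer cells of a type and less RNA per cell cannot be told apart. The column of ND 1-month replicate 1 had slipped by 1343 rows in the deposited table and was moved back; Fabp4 and the brightest Zfp423 probe set then have no value on that array.

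The upstream sequences of the members are shown to place them beside the factors that bind such genes. Of the 10 genes, 6 have 7 start sites in the RefSeq promoter table of assembly GRCr8, and the 250 bases before each start were searched on both strands for the C/EBP core TTGCNNAA, the CCAAT box CCAAT, the GC box GGGCGG, the TATA box TATAAA and the nuclear receptor half-site AGGTCA. The 4 windows printed are those of Cebpa, the member with an upstream window that was called lower at 2 months, of both Pparg starts, and of Plin1. Plin1 had the largest SD of the members over the arrays, 2.04 log2 units, just above Cfd at 2.03. The windows of Cfd, Cebpb and Adipoq were searched and are not printed. Each runs 5′ to 3′ and ends 1 base before the start, and capitals mark a searched motif in either orientation.
Cebpa (chr1:96896334-96896583, plus strand): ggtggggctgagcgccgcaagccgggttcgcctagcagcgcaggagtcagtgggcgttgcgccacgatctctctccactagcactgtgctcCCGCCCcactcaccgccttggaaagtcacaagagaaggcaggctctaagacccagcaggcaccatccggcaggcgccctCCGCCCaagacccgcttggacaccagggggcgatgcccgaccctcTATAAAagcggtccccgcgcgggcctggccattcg
Pparg, upstream start (chr4:150096808-150097057, plus strand): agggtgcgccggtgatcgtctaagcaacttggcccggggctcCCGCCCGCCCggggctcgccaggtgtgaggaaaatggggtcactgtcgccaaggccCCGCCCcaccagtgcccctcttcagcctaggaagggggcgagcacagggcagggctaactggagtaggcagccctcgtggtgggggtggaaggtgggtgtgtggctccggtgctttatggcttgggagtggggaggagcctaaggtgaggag
Pparg, downstream start (chr4:150154522-150154771, plus strand): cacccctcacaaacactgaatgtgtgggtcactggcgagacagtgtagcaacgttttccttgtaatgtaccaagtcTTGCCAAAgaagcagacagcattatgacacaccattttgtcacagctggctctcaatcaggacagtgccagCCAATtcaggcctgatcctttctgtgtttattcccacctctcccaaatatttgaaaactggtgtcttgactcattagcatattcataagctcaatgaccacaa
Plin1 (chr1:143086149-143086398, minus strand): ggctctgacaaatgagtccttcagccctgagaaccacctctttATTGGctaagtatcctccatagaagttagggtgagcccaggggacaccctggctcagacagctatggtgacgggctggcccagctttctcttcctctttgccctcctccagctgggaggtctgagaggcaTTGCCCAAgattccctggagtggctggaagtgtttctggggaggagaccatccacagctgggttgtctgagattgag
The C/EBP core stood in the window of Plin1, 77 bases before the start, and in that of the downstream Pparg start, 174 bases before it. It was in none of the other member windows, printed or not. Of all 33469 promoter windows in the table, 9.22% hold this core. The Cebpa window had 2 GC boxes and a TATA box, motifs that 30.5% and 12.9% of all windows hold. The upstream Pparg window had 3 GC boxes, 2 of them overlapping, and the Plin1 and downstream Pparg windows each had 1 CCAAT box, which 34% of all windows hold. GC content was 67.2% in the Cebpa and upstream Pparg windows and 44.8% in the downstream Pparg window, beside a median of 51.2% over all windows. The half-site AGGTCA, present in 14.1% of all windows, was in none of the 7 member windows. A match describes the letters and not a binding site.

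The first comparison asked how diet changed the members at 2 months, the one of the 3 feeding times at which any probe set passed. Cebpa and Cebpd fell in HFD, and the other 8 members did not pass the test although all 10 differences were negative. Of all tested probe sets, 2.54% passed in this comparison and 1.3% were lower, at a Benjamini-Hochberg adjusted p under 0.05 in limma. The median of the 10 member differences was -1.19 log2 units, beside -0.04 over the 11446 tested named genes, of which 55.3% were negative. Members vary with each other over the arrays, in both directions. Pearson r was 0.92 for Pparg and Plin1 and -0.80 for Cebpb and Pparg. The 10 differences are therefore not separate observations. A difference of 1 log2 unit is a 2-fold difference.

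Cebpd, an early C/EBP factor, read 8.01, 7.71 and 7.89 log2 units on the HFD arrays, against 9.46, 9.25 and 8.62 on the ND arrays at 2 months. Every HFD array lay below every ND array, and the 3 HFD values were the lowest of all 18 arrays. Cebpd fell by 1.24 ± 0.27 log2 units (SE), with a limma adjusted p of 0.0299. Cebpb, the other early factor, read 9.70, 9.85 and 9.81 in HFD against 10.75, 10.88 and 9.08 in ND. The HFD values were close together, and replicate 3 of ND lay below all of them while the other ND arrays lay above, so the groups overlapped. Its difference was -0.45 ± 0.46 log2 units (adjusted p = 0.596).

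Cebpa, which acts later and holds the adipocyte program on, read 5.91, 5.46 and 6.51 log2 units in HFD at 2 months, against 7.71, 7.49 and 7.64 in ND. The groups did not overlap, and the ND arrays spread by much less than the HFD arrays. Group means were 5.96 ± 0.53 in HFD and 7.61 ± 0.11 in ND (SD, n = 3 each), and Cebpa fell by 1.65 ± 0.38 log2 units (limma adjusted p = 0.0406). Pparg, the nuclear receptor that drives adipocyte formation, read 5.00, 4.27 and 3.18 in HFD against 4.12, 3.38 and 6.63 in ND. Here 1 ND array was the highest and the other ND arrays lay within the HFD range. The Pparg difference was -0.56 ± 1.2 log2 units, with a 95% interval from -3.12 to 2.00, so changes of several-fold either way lie inside it in this fit. Zfp423 read 5.43, 5.12 and 5.60 in HFD against 6.26, 6.04 and 6.46 in ND. These groups did not overlap, yet the difference of -0.87 ± 0.23 missed the threshold (adjusted p = 0.0654).

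Among the adipocyte genes, Cfd had the largest difference at 2 months. Cfd, the secreted complement factor adipsin, read 4.44, 5.17 and 5.13 log2 units in HFD against 7.37, 7.28 and 8.59 in ND. Its groups stood more than 2 log2 units apart, but the difference of -2.83 ± 1.05 did not pass (adjusted p = 0.154). Lpl, the lipase that releases fatty acids from circulating triglyceride, read 9.02, 8.23 and 7.19 in HFD against 10.00, 9.24 and 10.28 in ND. All HFD values were lower, and the difference was -1.69 ± 0.79 (adjusted p = 0.241). Fabp4, the fatty acid carrier of adipocytes, read 5.24, 5.56 and 6.89 in HFD against 7.99, 6.71 and 10.19 in ND. The highest HFD array passed the lowest ND array, and the difference was -2.40 ± 1.15 (adjusted p = 0.254).

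Plin1, the lipid droplet coat protein, and Adipoq, the adipocyte hormone adiponectin, were near the floor of the arrays at 2 months. Plin1 read 3.17, 3.04 and 3.10 log2 units in HFD against 2.78, 2.87 and 7.06 in ND, and a single ND array set its difference of -1.13 ± 1.44 (adjusted p = 0.67). Adipoq read 2.80, 3.09 and 2.69 in HFD against 2.96, 3.14 and 3.67 in ND, a difference of -0.39 ± 0.96 (adjusted p = 0.84). The filter level was 3.22 log2 units, so most of these readings were at a level where a probe set carries little signal. Complete separation, all HFD arrays below every ND array, was seen in 5 of the 10 members at 2 months (Cebpa, Cebpd, Zfp423, Lpl and Cfd) and in 12.9% of all tested probe sets.

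**Figure D1:**
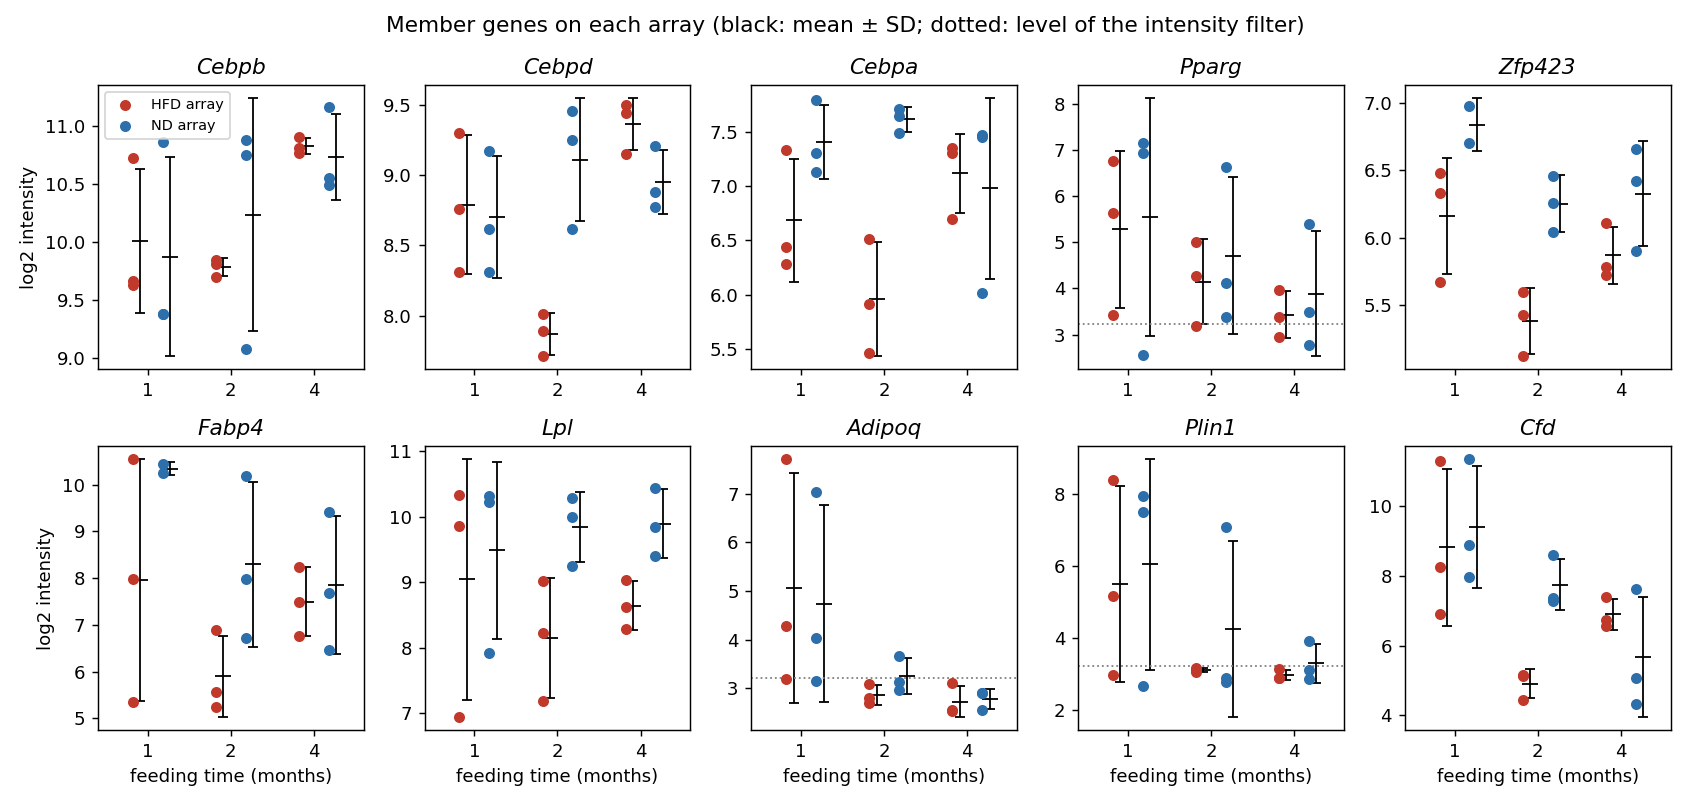
Log2 intensity of the 10 members on each array by feeding time, HFD in red and ND in blue, with the mean ± SD of each group in black and, in the Pparg, Adipoq and Plin1 panels, the filter level of 3.22 log2 units as a dotted line. At 2 months the HFD arrays of Cebpa, Cebpd, Zfp423, Lpl and Cfd all lie below the ND arrays, while Plin1 and Adipoq lie near the filter level on most arrays.

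The 2 calls rested on few arrays. The Cebpd call was lost when ND 2-month replicate 1 (adjusted p = 0.135) or replicate 2 (0.0866), or HFD 2-month replicate 1 (0.0868) or replicate 2 (0.127), was left out, with differences from -1.49 to -1.07 over all such fits. The Cebpa call was lost without any of the 3 ND 2-month arrays (adjusted p = 0.138, 0.0822 and 0.0654 for replicates 1, 2 and 3), without HFD 2-month replicate 1 (0.133) or replicate 2 (0.167), and without HFD 1-month replicate 3 or HFD 4-month replicate 1 or 3 (0.0524 to 0.0537); its difference lay between -1.93 and -1.40. In a fit of the 6 arrays compared, which called 0.0092% of probe sets, both calls were lost (adjusted p = 0.095 for Cebpa and 0.113 for Cebpd). Macrophage genes moved in the same comparison: 22 of 23 were lower in HFD, with a median of -1.59 log2 units, and none passed the test. All 4 tested granulocyte genes (median -0.75) and all 3 tested endothelial genes (median -0.80) were also lower without passing, and of 13 stromal markers Pdgfra fell, by 1.08 ± 0.25 (limma adjusted p = 0.0427), with a median of 0.05 for that list. The part of these cells in the member differences was not tested beyond a macrophage covariate. When the fit also held each array's macrophage mean as a covariate, the difference of Cebpd was -0.99 ± 0.22 (adjusted p = 0.0388), that of Cebpa -1.62 ± 0.42 (0.0645), that of Lpl -2.53 ± 0.58 (0.0405) and that of Zfp423 -1.05 ± 0.24 (0.0393), in a fit that called 2.11% of all probe sets. In that fit Pparg had -2.09 ± 0.59 (0.0858), Plin1 -2.79 ± 0.94 (0.132), Adipoq -1.12 ± 0.90 (0.533), Fabp4 -3.22 ± 1.19 (0.169), Cfd -3.31 ± 1.09 (0.127) and Cebpb 0.06 ± 0.33 (0.949).

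Several members have more than 1 probe set, and these were compared. For Cebpa, 3 of the 4 tested probe sets were called lower at 2 months, with differences of -1.65, -1.38 and -1.0 log2 units, and the other had -1.51 (adjusted p = 0.0701). For Cebpd, the second probe set fell by 1.64 ± 0.30 (limma adjusted p = 0.0163), with 7.39, 7.10 and 7.38 in HFD against 9.32, 9.11 and 8.35 in ND. Another Cebpd probe set, a dim one, read 3.29 to 3.95 on all arrays and had a difference of -0.05. The probe sets of Zfp423 disagreed: beside -0.87 for the brightest, the others had 0.35, -0.32 and 0.43 at 2 months, none of them called. The brightest was not called at 2 months either. The probe set with 0.35 read 5.63, 5.42 and 5.47 in HFD against 5.26, 4.96 and 5.25 in ND. Every HFD array there lay above every ND array, as in 11.8% of tested probe sets. At 4 months it again lay all above (3.81% of tested probe sets), and the one with 0.43 lay all below (4.73%). What is said of Zfp423 here therefore holds for its brightest probe set.

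**Figure D2:**
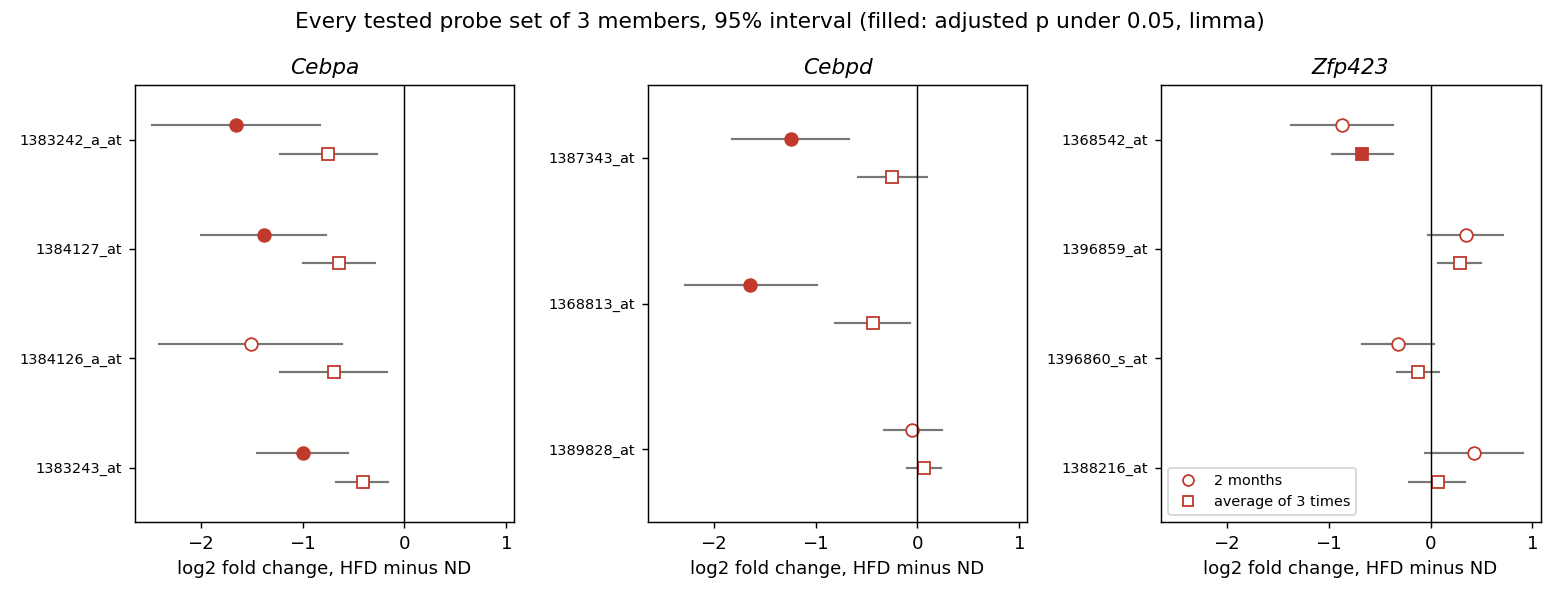
Log2 fold change, HFD minus ND, with its 95% interval for every tested probe set of Cebpa, Cebpd and Zfp423, at 2 months (circles) and averaged over the 3 feeding times (squares); filled symbols passed at an adjusted p under 0.05 in limma. The Cebpa probe sets lie on the same side at 2 months, between -1.65 and -1.0, while those of Zfp423 lie on both sides of 0.

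At 1 month no member passed the diet comparison, and 0% of all tested probe sets did, although 2124 of them and 1 member, Zfp423, had an unadjusted p under 0.05 in limma. Cebpd read 8.31, 9.30 and 8.76 log2 units in HFD against 9.17, 8.62 and 8.31 in ND, a full overlap with a difference of 0.09 ± 0.27. Cebpa read 7.33, 6.28 and 6.44 in HFD against 7.13, 7.79 and 7.30 in ND, a difference of -0.72 ± 0.38 (limma adjusted p = 0.571). Fabp4 read 10.54, 5.35 and 7.98 in HFD against 10.24 and 10.44 on the 2 ND arrays with a value. HFD replicate 1 was as high as ND and replicate 2 far below, and the difference was -2.38 ± 1.29 (adjusted p = 0.584). Zfp423 read 6.48, 5.67 and 6.33 in HFD against 6.98 and 6.70 in ND (-0.68 ± 0.26, adjusted p = 0.386). It was the 1 member of 10 with all HFD values below ND, as were 10.7% of all tested probe sets. For Zfp423 this was 3 arrays against 2, an easier separation than 3 against 3 for a probe set with every value.

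For the other members the 1-month arrays of both diets were split. Pparg read 6.78, 3.42 and 5.65 log2 units in HFD against 2.56, 6.94 and 7.15 in ND. Plin1 read 8.38, 2.97 and 5.15 in HFD against 2.66, 7.50 and 7.94 in ND, and Adipoq 7.72, 3.20 and 4.28 in HFD against 3.16, 4.03 and 7.03 in ND. In each case HFD replicate 2 and ND replicate 1 were the low arrays of their groups. Cfd read 11.30, 6.91 and 8.25 in HFD against 7.98, 8.89 and 11.36 in ND, and Lpl 10.33, 6.94 and 9.86 in HFD against 7.92, 10.22 and 10.31 in ND. The differences of these 5 genes lay between -0.59 and 0.33 with standard errors from 0.79 to 1.44. Cebpb had the reverse order, with 9.63, 10.72 and 9.67 in HFD against 10.86, 9.38 and 9.38 in ND, so that HFD replicate 2 and ND replicate 1 were its high arrays (0.13 ± 0.46).

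At 4 months no member passed, nor did any of the tested probe sets (0%), of which 811 had an unadjusted p under 0.05 in limma; no member did. Cebpd read 9.50, 9.44 and 9.15 log2 units in HFD against 8.77, 8.88 and 9.21 in ND, a difference of 0.41 ± 0.27 with 1 ND array inside the HFD range. Cebpa read 7.35, 6.70 and 7.30 in HFD against 7.47, 7.45 and 6.02 in ND (0.14 ± 0.38). Lpl read 8.62, 9.03 and 8.28 in HFD against 10.44, 9.40 and 9.84 in ND. Lpl was the 1 member of 10 whose HFD arrays all lay below the ND arrays, which 4.73% of tested probe sets showed, and its difference of -1.25 ± 0.79 had an adjusted p of 0.999. Cfd read 7.41, 6.56 and 6.75 in HFD against 5.08, 7.62 and 4.32 in ND, a positive difference of 1.23 ± 1.05. The ND arrays of Cfd spanned more than 3 log2 units and enclosed the HFD values.

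The groups of the remaining members overlapped at 4 months. Plin1 read 2.89, 2.88 and 3.14 log2 units in HFD against 3.90, 2.85 and 3.11 in ND, and Adipoq 3.10, 2.53 and 2.55 in HFD against 2.55, 2.91 and 2.90 in ND. Pparg read 2.94, 3.39 and 3.96 in HFD against 5.40, 2.77 and 3.49 in ND. Fabp4 read 6.76, 8.24 and 7.50 in HFD against 9.41, 7.68 and 6.47 in ND, with the HFD values inside the ND range. Zfp423 read 5.72, 6.11 and 5.78 in HFD against 6.66, 5.90 and 6.42 in ND (-0.46 ± 0.23). Cebpb read 10.77, 10.81 and 10.90 in HFD against 10.55, 10.49 and 11.16 in ND (0.09 ± 0.46).

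**Figure D3:**
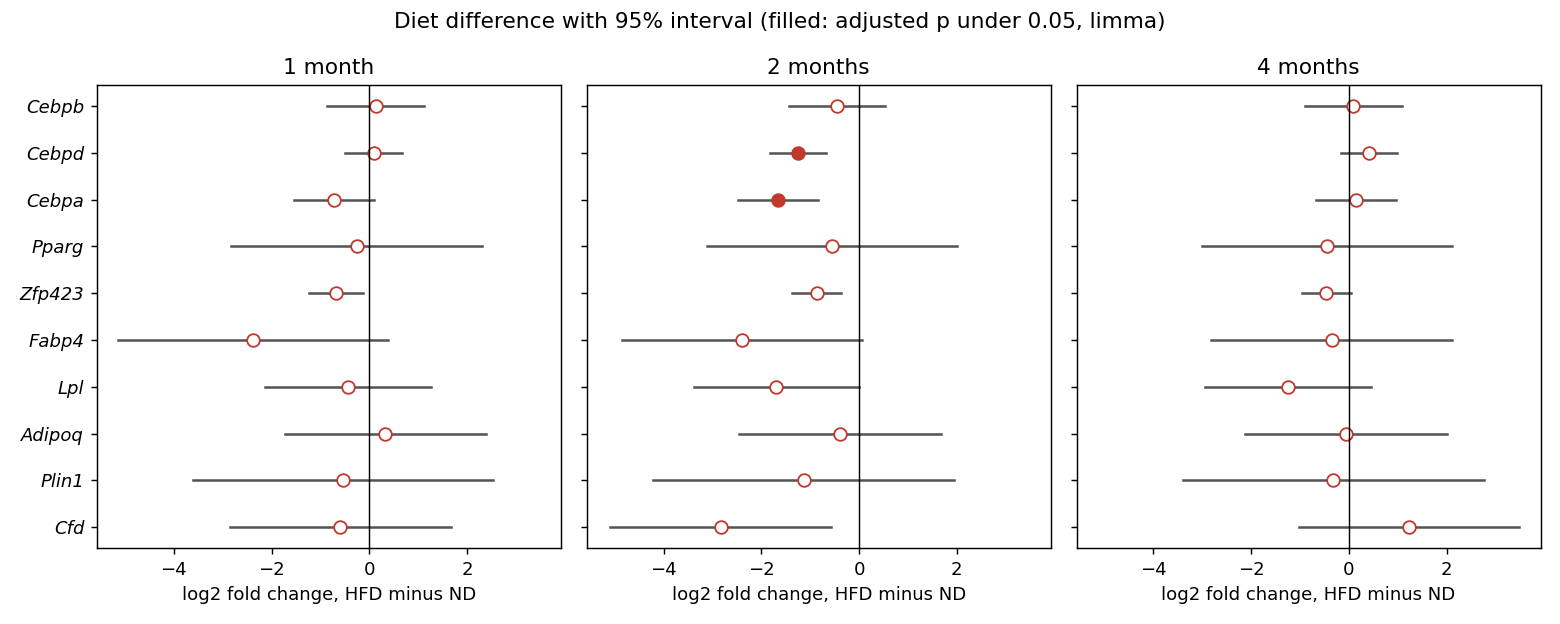
Log2 fold change, HFD minus ND, of the 10 members at 1, 2 and 4 months with 95% intervals from limma; filled circles passed at an adjusted p under 0.05. Only Cebpd (-1.24) and Cebpa (-1.65) are filled, both at 2 months, and the intervals of Pparg, Fabp4, Plin1 and Cfd are several log2 units wide at every time.

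Averaged over the 3 feeding times, Zfp423 was the member that passed, and Cebpa came next. Zfp423 fell by 0.67 ± 0.14 log2 units in HFD (limma adjusted p = 0.0302), a comparison in which 2.82% of all tested probe sets passed and 1.83% were lower. Its other tested probe sets had averages of 0.29, -0.12 and 0.07, and the mean of all 4 gave -0.05 (adjusted p = 0.863). Under quantile normalization the brightest probe set had an adjusted p of 0.0572. The call was lost on leaving out any 1 of 8 arrays: ND 1-month replicate 2 (adjusted p = 0.0807), HFD 1-month replicate 3 (0.0574), ND 2-month replicate 1 (0.0557), HFD 2-month replicates 1 and 2 (0.0546 and 0.0577), ND 4-month replicate 1 (0.064), and HFD 4-month replicates 1 and 3 (0.0676 and 0.0566). Cebpa had -0.75 ± 0.22 (adjusted p = 0.0795), Fabp4 -1.71 ± 0.69 (0.176) and Lpl -1.12 ± 0.46 (0.175). The Zfp423 and Fabp4 averages rest on 2 ND arrays at 1 month, as ND 1-month replicate 1 has no value for them. That array was the lowest of its group for Pparg, Plin1, Lpl, Adipoq and Cfd. What its value would have done to the 2 averages was not tested. All 10 averages were negative, with a median of -0.66, beside 59.7% of all named genes and a median of -0.04. Those of Adipoq (-0.04) and Cebpb (-0.07) were small, and the 10 are again not separate observations.

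Whether the diet difference itself changed with feeding time was tested with an F test in limma, which no member and 0% of tested probe sets passed. Over all tested probe sets 1465 had an unadjusted p under 0.05, and 3 members did, Cebpd, Cebpa and Cfd. Cebpd had the smallest adjusted p of these (0.423). Its diet difference at 4 months exceeded that at 2 months by 1.66 ± 0.38 log2 units (adjusted p = 0.208), and that at 2 months differed from that at 1 month by -1.33 ± 0.38 (adjusted p = 0.527). For Cebpa the F test in limma gave an adjusted p of 0.654 and for Cfd 0.738. The calls at 2 months are thus not shown to be particular to that time.

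Within HFD the members were followed over time. All rats began feeding at 6 weeks of age, so feeding time and age moved together. The 2 cannot be told apart in any comparison of feeding times within a diet. Cebpd averaged 8.79 ± 0.49 log2 units at 1 month, 7.87 ± 0.16 at 2 months and 9.37 ± 0.19 at 4 months (SD, n = 3 each). All 3 values at 4 months were above all those at 2 months, and the rise of 1.5 ± 0.27 passed (limma adjusted p = 0.033), where 0.704% of tested probe sets passed and 0.29% rose. The share of all tested probe sets separated in this way was not counted for this comparison. The second Cebpd probe set rose by 1.81 ± 0.30 (adjusted p = 0.0248). The call of the brightest Cebpd probe set was lost without any 1 of HFD 1-month replicate 3 (adjusted p = 0.0501), HFD 2-month replicates 1 and 2 (0.115 and 0.157), or HFD 4-month replicates 1, 2 and 3 (0.104, 0.144 and 0.066). In the same comparison 22 of 23 macrophage genes were higher, with a median of 2.6 and none called, as were all 4 granulocyte genes (median 0.68) and all 3 endothelial genes (median 1.43), and with the macrophage mean as a covariate the Cebpd difference was 1.11 ± 0.24 (adjusted p = 0.0919). Cebpa differed by 1.16 ± 0.38 (adjusted p = 0.157) and Cebpb by 1.04 ± 0.46 (0.274) between the same times.

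The other steps in time called no member. From 1 to 2 months within HFD, where 0.0782% of tested probe sets passed, Cfd had the largest difference at -3.90 ± 1.05 log2 units (adjusted p = 0.28). Cebpd had -0.92 ± 0.27 (0.341), Zfp423 -0.78 ± 0.23 (0.352) and Adipoq -2.21 ± 0.96 (0.595). Between 1 and 4 months within HFD, where 0% of tested probe sets passed and 1721 had an unadjusted p under 0.05, Adipoq had -2.34 ± 0.96 (0.577) and Cebpd 0.58 ± 0.27 (0.63). Within ND 0% of tested probe sets passed in any of the 3 comparisons of feeding times, with 562 to 2040 at an unadjusted p under 0.05. There Cfd had -3.74 ± 1.05 at 4 months relative to 1 month (adjusted p = 0.37) and Zfp423 -0.59 ± 0.26 at 2 months relative to 1 month (adjusted p = 1). That Zfp423 difference rests on 2 ND arrays at 1 month.

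The adipocyte genes and Pparg varied far more over the arrays than most probe sets. The SD over the arrays was 2.04 log2 units for Plin1, 2.03 for Cfd, 1.79 for Fabp4, 1.56 for Pparg, 1.47 for Adipoq and 1.10 for Lpl, beside a median of 0.23 over all tested probe sets. Between 97.9% and 99.9% of tested probe sets had a lower SD than these 6. The transcription factors other than Pparg had SDs from 0.50 to 0.70. Plin1 ranged from 2.66 to 8.38 log2 units and Adipoq from 2.53 to 7.72, and they were at or below the filter level on 12 and 13 of the 18 arrays. The filter acts on the mean, so a probe set this low on most arrays passes only through high values on the others. The SD rank of Plin1 and Adipoq among tested probe sets therefore follows in part from the filter.

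The same 5 arrays were the highest for Pparg, Plin1, Adipoq and Cfd alike: ND 1-month replicates 2 and 3, HFD 1-month replicates 1 and 3, and ND 2-month replicate 3. The step below them was clear for Plin1, with 5.15 log2 units on the fifth array and 3.90 on the next, and narrow for Pparg (5.65 and 5.40), Adipoq (3.67 and 3.20) and Cfd (8.25 and 7.98). Fabp4, Lpl and Zfp423 had 4 of these arrays among their own 5 highest, together with ND 4-month replicate 1. Cebpb and Cebpd shared none of them among their 5 highest, and Cebpa shared 2. High levels of the adipocyte genes were thus found in both diets at 1 month, in 4 of the 6 arrays of that time. No HFD array of 2 or 4 months was among the 5 highest of any adipocyte gene.

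**Figure D4:**
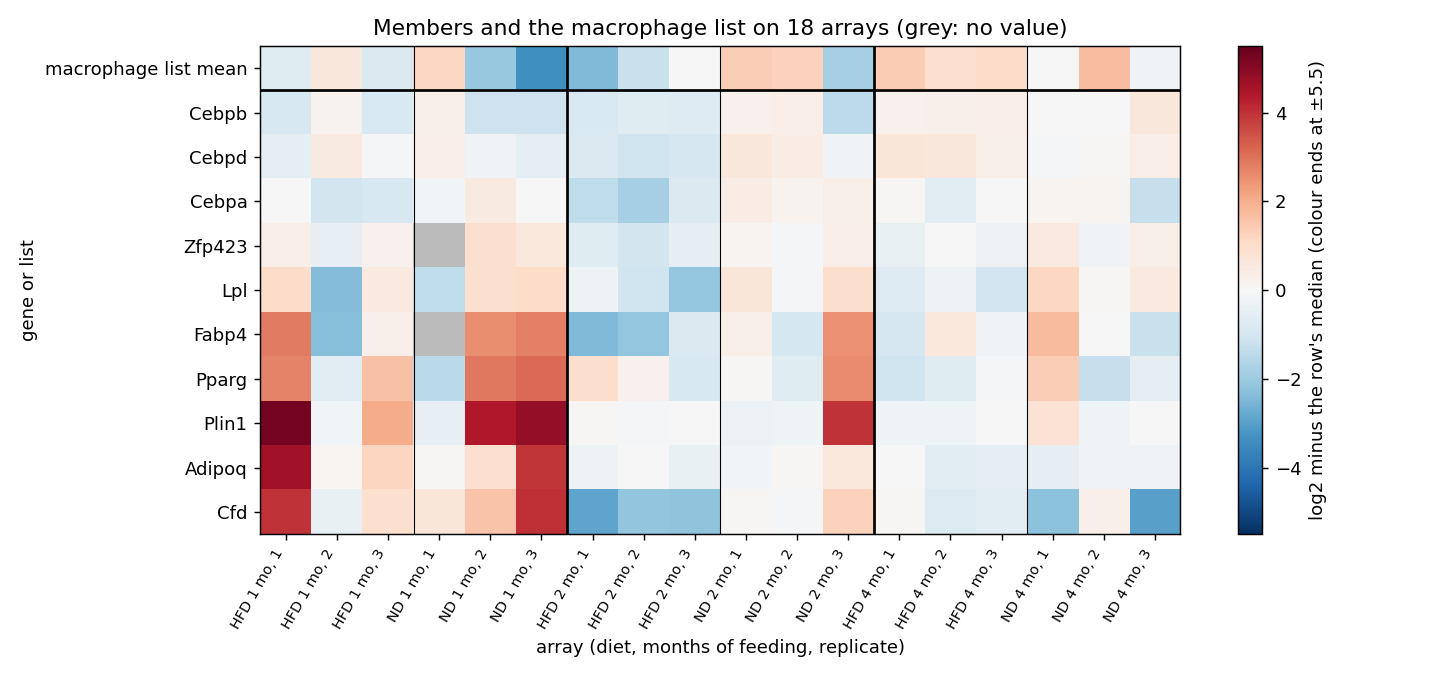
Log2 intensity of the 10 members and of the mean of 20 macrophage genes on the 18 arrays, each row minus its own median, with HFD left of ND within each feeding time; grey marks no value. The reddest cells of Plin1, Pparg and Fabp4 stand on ND 1-month replicates 2 and 3, HFD 1-month replicate 1 and ND 2-month replicate 3. Those of Adipoq and Cfd stand on HFD 1-month replicate 1 and ND 1-month replicate 3. The Cebpa, Cebpd and Cfd rows are blue on the 3 HFD arrays of 2 months.

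Because macrophage markers varied so widely, each member was set against the mean of the macrophage list over the arrays, 10 relations in all. Cebpd rose with the macrophage mean (Pearson r = 0.70, adjusted permutation p = 0.00445; Spearman rho = 0.75, adjusted permutation p = 0.00217; 18 arrays). Without the 2 arrays farthest from the median, r was 0.65, and after the mean of each group was subtracted it was 0.66 (adjusted permutation p = 0.0604). Pparg ran the other way (r = -0.81, adjusted permutation p = 5.50e-04; rho = -0.80, adjusted permutation p = 7.50e-04; 18 arrays). It kept r = -0.81 without the 2 farthest arrays and had r = -0.89 within groups (adjusted permutation p = 0.00605). The Lpl relation was r = -0.38 and rho = -0.32 over all arrays (adjusted permutation p = 0.194 and 0.319), and r = -0.74 within groups (adjusted permutation p = 0.00605).

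Cebpb and Plin1 also varied with the macrophage mean. Cebpb had r = 0.83 (adjusted permutation p = 5.50e-04) and rho = 0.70 (adjusted permutation p = 0.00362), 0.83 without the 2 farthest arrays and 0.77 within groups (adjusted permutation p = 0.0604). Plin1 had r = -0.70 (adjusted permutation p = 0.00445) and rho = -0.81 (adjusted permutation p = 7.50e-04), -0.75 without the 2 farthest arrays and -0.80 within groups (adjusted permutation p = 0.0227). Adipoq had r = -0.51 and rho = -0.37 (adjusted permutation p = 0.0511 and 0.265), -0.41 without the 2 farthest arrays and -0.53 within groups (adjusted permutation p = 0.145). Cebpa, Zfp423, Fabp4 and Cfd had r between -0.34 and 0.20, with adjusted permutation p from 0.255 to 0.416, and rho between -0.30 and 0.27, with adjusted permutation p from 0.354 to 0.616. Without the 2 farthest arrays r lay between -0.44 and 0.17 for these 4.

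Several members have a wide gap in their values, so each was also read on either side of its largest gap, where 6 or more arrays lay, a setting chosen after the data were seen that gave 11 relations. Cebpb read 9.08 to 9.85 log2 units on 8 arrays and 10.49 to 11.16 on 10, and within these ranges r was 0.53 (exact permutation p = 0.188) and -0.39 (permutation p = 0.27). The split was made on the Cebpb values themselves, which narrows their range, and each side has few arrays. These 2 values of r therefore cannot show whether the Cebpb relation holds within the ranges. On the 14 lower arrays Pparg had r = -0.66 (adjusted permutation p = 0.0575) and Plin1 r = -0.43 (adjusted permutation p = 0.167). Spearman rho there was -0.67 for Pparg and -0.74 for Plin1, and was not tested. Of the 18 Plin1 readings 12 were at or below the filter level. Cebpd had r = 0.75 on its 13 upper arrays (adjusted permutation p = 0.0311), and the adjusted p of the others ran from 0.167 to 0.613. The HFD arrays of 2 months, with macrophage means of 5.21, 6.41 and 7.61, had Plin1 at 3.17, 3.04 and 3.10.

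**Figure D5:**
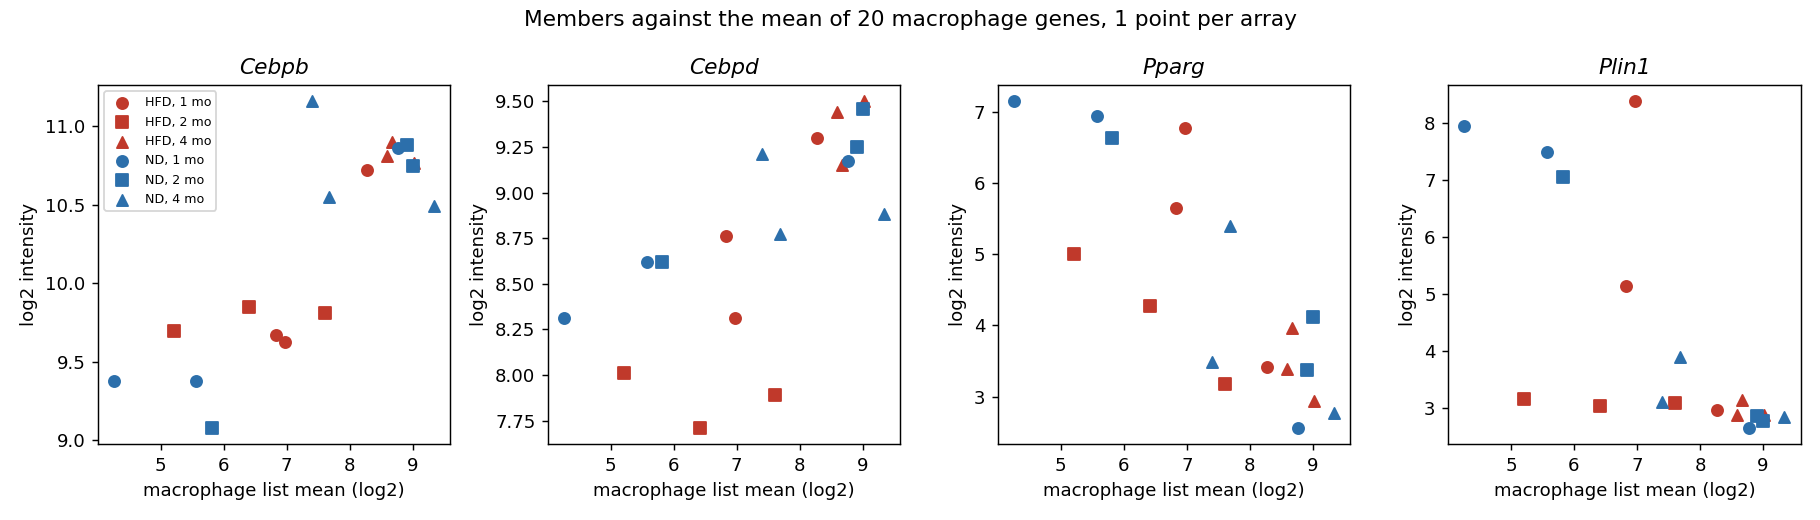
Log2 intensity of Cebpb, Cebpd, Pparg and Plin1 against the mean of 20 macrophage genes, 1 point per array, HFD in red and ND in blue, with shapes for 1, 2 and 4 months. Cebpd is high and Pparg low where the macrophage mean is high, and the 3 HFD arrays of 2 months (red squares) have Cebpd between 7.71 and 8.01, below every other array.

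Other genes of the pathway were read from 4 lists. Of 3 other tested C/EBP family genes none passed at 2 months. Cebpg, a partner of other C/EBP proteins, had 0.37 ± 0.16 log2 units, Cebpz -0.15 ± 0.08, and Ddit3, a stress-induced member that blocks its partners, 0.88 ± 0.50. Of 23 other regulators that promote adipogenesis none passed, and their median was -0.10. The 4 with the smallest p were the liver X receptor Nr1h3 (-0.64 ± 0.18, limma adjusted p = 0.0679), Stat5b (-0.70 ± 0.22, 0.091), the phosphatidate phosphatase Lpin1 (-1.09 ± 0.35, 0.102) and the growth factor Bmp4 (-2.48 ± 0.80, 0.105). Bmp4 read 5.84, 5.34 and 4.77 in HFD against 8.26, 6.52 and 8.62 in ND, with no overlap. In 12.9% of tested probe sets all HFD arrays lay below the ND arrays at 2 months. Within HFD, Nr1h3 rose by 0.98 ± 0.18 at 4 relative to 2 months (adjusted p = 0.033), the 1 regulator of 23 that passed there. Among the other adipocyte genes Me1, the malic enzyme that makes NADPH, fell by 1.08 ± 0.23 in the same comparison (adjusted p = 0.0473), the 1 of 31 that passed, beside 36 higher and 52 lower of the 11446 named genes.

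Of 20 inhibitors of adipogenesis 2 fell at 2 months and 18 did not pass, with a median of 0.06. Insig1, which holds back sterol-driven lipid synthesis, fell by 1.59 ± 0.31 log2 units (limma adjusted p = 0.0218), with 7.99, 8.79 and 9.44 in HFD against 10.50, 10.13 and 10.38 in ND. Klf7, a Krüppel-like transcription factor, fell by 0.58 ± 0.14 (adjusted p = 0.0498) and was also lower averaged over the 3 times, by 0.39 ± 0.08 (log2 difference -0.39, adjusted p = 0.0303). Smad3 had -1.18 ± 0.31 (0.0618) and Foxo1 0.51 ± 0.20 (0.168). Of 31 other adipocyte genes 1 fell and 30 did not pass, with a median of -0.31. The 1 was the fatty acid desaturase Scd, which fell by 1.90 ± 0.47 (adjusted p = 0.048), with 5.05, 5.62 and 6.75 in HFD against 8.21, 6.93 and 8.0 in ND. Acly, Fasn and Dgat2, enzymes of fatty acid and triglyceride synthesis, had -0.84 ± 0.25, -0.47 ± 0.14 and -0.96 ± 0.30 (adjusted p = 0.0842, 0.0887 and 0.0986). The counts of calls stand beside 126 higher and 159 lower of the 11446 tested named genes. Several of these list calls lie close to the threshold. Calls of genes outside the members, those of Pdgfra, Nr1h3 and Me1 included, were not rerun under other settings or without single arrays. Of the 31 other adipocyte genes 22 were lower, called or not (71%, beside 55.3% of all named genes). Of 7 mature adipocyte markers, Adipoq, Plin1 and Cfd among them, 4 were lower (median -0.27). Cidea and Me1, named for their direction, had every HFD array above every ND array, as did 11.8% of tested probe sets. Cidea read 7.05, 6.75 and 5.83 in HFD against 5.33, 5.05 and 5.75 in ND.

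The genes whose pattern over the arrays was most like that of a member were taken from 10692 named genes (10693 for Fabp4) by Pearson r, a description over arrays that share groups and cell makeup. For Pparg they were the Wnt pathway transcription factor Tcf7l1 (r = 0.938), the myo-inositol transporter Slc5a3 (0.93), Arxes1 (0.929) and Adam23 (0.929). For Cebpd they were the complement protease C1s (0.911), the peptide hormone Apln (0.906), Qpct (0.903) and the growth factor receptor Pdgfra (0.901). For Cebpa they were Dock10 (0.865), Agap1 (0.858), the pyruvate dehydrogenase subunit Pdha1 (0.857) and the DNA repair kinase Prkdc (0.854). For Lpl they were the B cell and adipocyte transcription factor Ebf1 (0.848), Bbip1 (0.807), Cyp1b1 (0.803) and Hlf (0.793). For Fabp4, over 17 arrays, they were the retinol carrier Rbp4 (0.938), Smc6 (0.901), the cytokine receptor kinase Jak1 (0.892) and Arhgap28 (0.889).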

How the data were processed

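Total RNA of each culture was hybridized to an Affymetrix rat array, and the deposited values are probe set intensity on a linear scale, from 2.52 to 9915, summarised by the authors with RMA (no version), per the submitters' processing notes. Array medians lay between 25.4 and 27.1; precision is limited by having 3 arrays a group. The ND 1-month replicate 1 column was moved down 1343 rows, after which it correlated at 0.9901 with the average of the rest, against 0.0909 as deposited.

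Log2 was taken with no added constant. The dimmest 30% of probe sets by mean log2 were left out, as were 57 controls. The package limma 3.58.1 (R 4.3.3) fitted 6 group means to all 18 arrays and 21729 probe sets; tests are two-sided, with Benjamini-Hochberg adjustment over all of them and a threshold of 0.05. A gene is represented by its brightest tested probe set. Correlations used 100000 permutations in Python 3.11.15 with scipy 1.17.1, adjusted over the 10 members; within-group tests permuted arrays within groups. The procedures were tested on simulated data.

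Members, lists, tests and the naming rule (all members, and up to 4 list genes with the smallest p) were chosen with earlier results of these data known. A p-value here reflects the spread among arrays; the labels say of their animals only that there were 3 a group. Same-numbered arrays had a mean residual correlation of -0.0254 over 45 pairs (range -0.572 to 0.662), so the numbers were not treated as pairs. Alternatives were the filter, quantile normalization, median centring, the variance model, array weights, mean of probe sets, the replicate number as a block, the macrophage mean as a covariate, fits of the compared arrays alone, and leaving out arrays. Promoter sequences are RefSeq's (GRCr8), and gene symbols are those of the platform annotation.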

Additional observations from a re-analysis of the deposited data

How the results depend on the processing

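The number of members called at 2 months was 2, and it was 1 with the replicate number as a block (adjusted p = 0.0591 for Cebpa and 0.046 for Cebpd; 1.46% of all probe sets called), 0 when the fit held just the 6 arrays compared, and 0 to 2 when single arrays were left out. With the macrophage covariate it was 3, Cebpd, Zfp423 and Lpl (2.11%), and with array weights 3, Cebpa, Cebpd and Zfp423 (19.9%). Averaged over the 3 times it was 1, and it was 0 under quantile normalization and with the mean of the probe sets, 2 with array weights (15.3% of probe sets), 0 to 2 without single arrays, and 0 without both ND arrays that stood apart (1-month replicate 1, 2-month replicate 3). This pair was chosen after seeing the data, for its macrophage and adipocyte gene values, with which Plin1 and Cebpb move, so calls of those genes without it follow in part from the choice: 2 members at 2 relative to 1 month within ND (Cebpb and Plin1, 3.53% of probe sets) and 1 at 4 relative to 1 month (Cebpb, 0.64%), against 0 each. For the diet difference at 2 months, Cebpa lost its call without the pair (limma adjusted p = 0.0503) and Cebpd kept it (0.0143). Cebpb passed at 2 months in 1 alternative, which was not a fit without a single array (limma adjusted p = 0.0478). Within HFD array weights gave 3 members (2.57% of probe sets), against 0, at 2 relative to 1 month. At 4 relative to 2 months within HFD the number was 1, and it was 4 with array weights (14.8% of probe sets), 0 with the replicate block (adjusted p = 0.0552 for Cebpd), 0 with the macrophage covariate, 3 when the fit held just the 6 arrays compared (1.39%), and 0 to 1 without single arrays. The within-group relation to the macrophage mean had r = 0.77 for Cebpb and 0.66 for Cebpd (adjusted permutation p = 0.0604 each) and r = -0.74 for Lpl (0.00605). The cause of these shifts was not tested, and the block changed no other member call.

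The diet differences, and the differences between times with an unadjusted p under 0.05, were recomputed; other differences between times were not. Those whose sign turned were diet differences that had not been called. With the macrophage covariate they were, at 1 month, -0.26 for Cebpb, -0.10 for Cebpd, 0.91 for Pparg, 0.21 for Lpl and 0.74 for Plin1. At 2 months Cebpb had 0.06, and at 4 months Cebpb had -0.11, Pparg 0.17, Adipoq 0.24 and Plin1 0.36; averaged, Adipoq had 0.00. Array weights gave 0.12 for Pparg at 2 months, -0.17 for Cebpa and 0.04 for Adipoq at 4 months, and 0.06 for Adipoq averaged, and the mean of its probe sets gave 0.15 for Zfp423 at 1 month. Leaving out both ND arrays together gave -0.46 for Adipoq at 1 month, and 0.40 for Pparg and 0.28 for Plin1 at 2 months. When single arrays were left out, differences whose sign turned ranged at 1 month from -0.22 to 0.63 for Cebpb, -0.17 to 0.33 for Cebpd, -1.76 to 0.67 for Pparg, -1.22 to 0.61 for Lpl, -1.0 to 1.47 for Adipoq, -2.22 to 0.73 for Plin1 and -1.83 to 0.38 for Cfd. At 2 months they ranged from -1.23 to 0.40 for Pparg and -1.87 to 0.28 for Plin1. At 4 months they ranged from -0.34 to 0.38 for Cebpa, -0.03 to 0.31 for Cebpb, -1.01 to 0.30 for Pparg, -1.04 to 0.43 for Fabp4 and -0.24 to 0.04 for Adipoq. Averaged, they ranged from -0.27 to 0.09 for Cebpb and -0.48 to 0.34 for Adipoq. Of the single member values under all alternatives, 1351 kept direction and side of the threshold, 54 turned sign, 36 lost and 14 gained a call. Signal limits Pparg, Adipoq and Plin1, which a filter on the dimmest 50% leaves out. The average over times was not run on compared arrays alone.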

Other observations

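Gpd1, the glycerol phosphate dehydrogenase that supplies the backbone of triglyceride, was picked out of the adipocyte list after its values were seen. It read 8.24, 3.06 and 5.02 log2 units in HFD and 3.46, 6.49 and 7.69 in ND at 1 month, 3.58, 3.45 and 2.95 in HFD and 3.55, 3.48 and 6.45 in ND at 2 months, and 3.51, 3.19 and 3.02 in HFD and 3.66, 3.21 and 3.82 in ND at 4 months. Its 5 arrays above 5 log2 units were the 5 on which Plin1 was highest, in both diets at 1 month and in ND at 2 months. The adipocyte list did not share this pattern throughout. Cidea (7.05), Adrb3 (6.93) and Slc2a4 (5.75) were highest on HFD 2-month replicate 1, where Plin1 read 3.17. Lipe read 5.99 to 6.53 over all arrays.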
